A study of Caenorhabditis elegans with 12 samples.

Results

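At day 0, 529 of 14380 tested genes (3.68%) differed between the transnuclear strain CN30 and the wild type N2 of the nematode Caenorhabditis elegans, 297 of them higher in CN30 (2.07%) and 232 lower (1.61%). The genes compared were those with at least 1 FPKM (fragments scaled to gene length and to the mapped fragments of the library) in at least 3 of the 6 day-0 libraries, 14380 of the 22191 in the deposited mRNA table, and 2449 of them are loci that the authors assembled from the reads. CN30 and N2 had 3 libraries each, made from total RNA of whole worms that were grown at 20 °C on E. coli OP50. Each strain also had 1 library at each of days 6, 9 and 12, which served only to describe the day-0 genes later in life. Genotypes are given as trans-nuclear for CN30, which sample titles spell NC30, and wild type for N2. The sources used here leave unsaid from which strains the nucleus and the mitochondria of CN30 came, how many generations separated the lines, what stage day 0 marks, and whether separate cultures were used for each library. The p-values therefore measure only the spread between these libraries, which may be technical.

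A transnuclear line joins the nuclear genome of one strain to the mitochondria of another, usually by repeated crossing, and it is used to ask how mitochondrial DNA variants act. Mitochondria depend on nuclear genes for most of their proteins, among them most respiratory chain subunits and all mitochondrial ribosomal proteins. The deposited table holds 0 genes of the mitochondrial genome, so only nuclear genes could be compared. In whole-worm RNA, fewer cells of a type and less RNA per cell cannot be told apart.

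Of the 6 libraries, N2 replicate 2 stood apart. Between 8.14 and 9.57% of genes differed by at least 1 on the log2 scale between it and the other N2 libraries, whereas 0.841% did between N2 replicates 1 and 3 and 0.688 to 1.22% did among the CN30 libraries. Between a CN30 library and N2 replicate 1 or 3 the share was 3.38 to 5.33%. The gene lists that moved most in N2 replicate 2 were the cuticle collagens (median deviation from the N2 mean -0.97 on the log2 scale), the hedgehog-related genes, the moulting genes, and in the other direction the vitellogenins, the yolk protein precursors (1.43). Without N2 replicate 2 the number of genes that passed was 1803 (844 higher in CN30 and 959 lower), and without any other single library it lay between 186 and 489. A set of 161 genes (1.12%), 98 higher (0.682%) and 63 lower (0.438%) in CN30, passed with all 6 libraries and in each of the 6 fits that left out 1 library, and is called the stable set here.

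**Figure D1:**
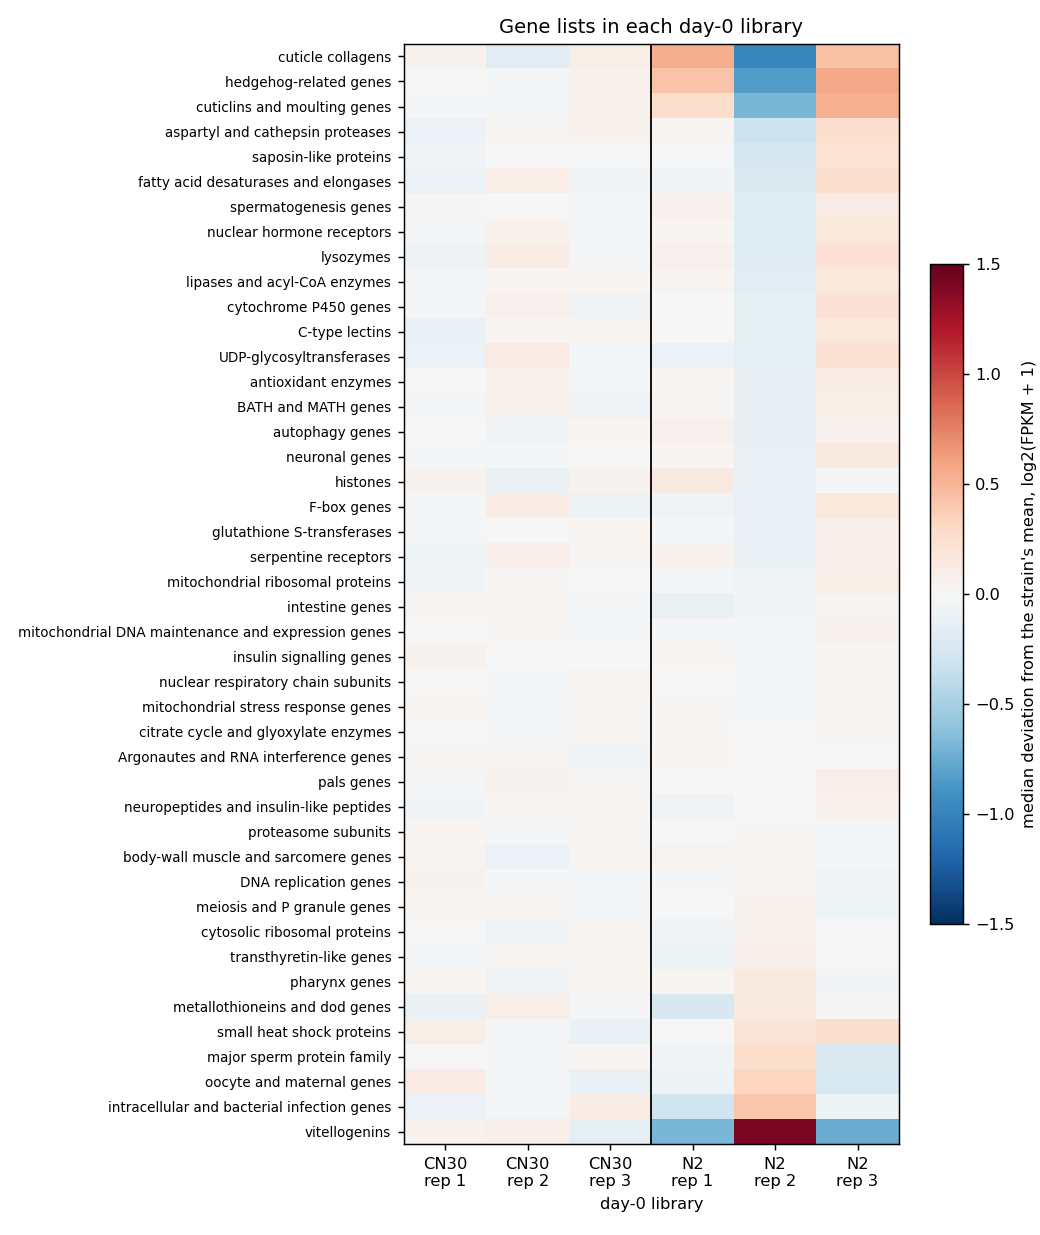
Median deviation of each gene list (one line per list) in each day-0 library from the mean of its own strain, in log2(FPKM + 1), red above and blue below the mean. N2 replicate 2 is low in cuticle collagens (-0.97), hedgehog-related genes (-0.83) and moulting genes (-0.69) and high in vitellogenins (1.43), and the CN30 libraries differ little from each other.

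Genes that rose in CN30 were mostly weakly expressed ones, with a median level of 9.01 FPKM in CN30 and 1.74 FPKM in N2. Of the 297, 114 had under 1 FPKM in all 3 N2 libraries, and 34 were listed at 0 in all of them. Genes that fell had a median of 6.81 FPKM in CN30 and 16.9 FPKM in N2, with 36 under 1 FPKM in all 3 CN30 libraries and 10 listed at 0 there. By the filter, a gene under 1 FPKM throughout a strain was tested only where every library of the other strain reached 1 FPKM. The direction of such a gene was fixed by the filter, so these counts are a description. Differences of 2 or more on the log2(FPKM + 1) scale were found in 67 of the rises and 27 of the falls. The median difference was 1.2 among the rises and -0.93 among the falls, and 0.08 over all genes tested. An exact 0 in these files can be a missing estimate, and a log2 difference against a strain at 0 depends on the pseudocount of 1 and is no fold change.

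**Figure D2:**
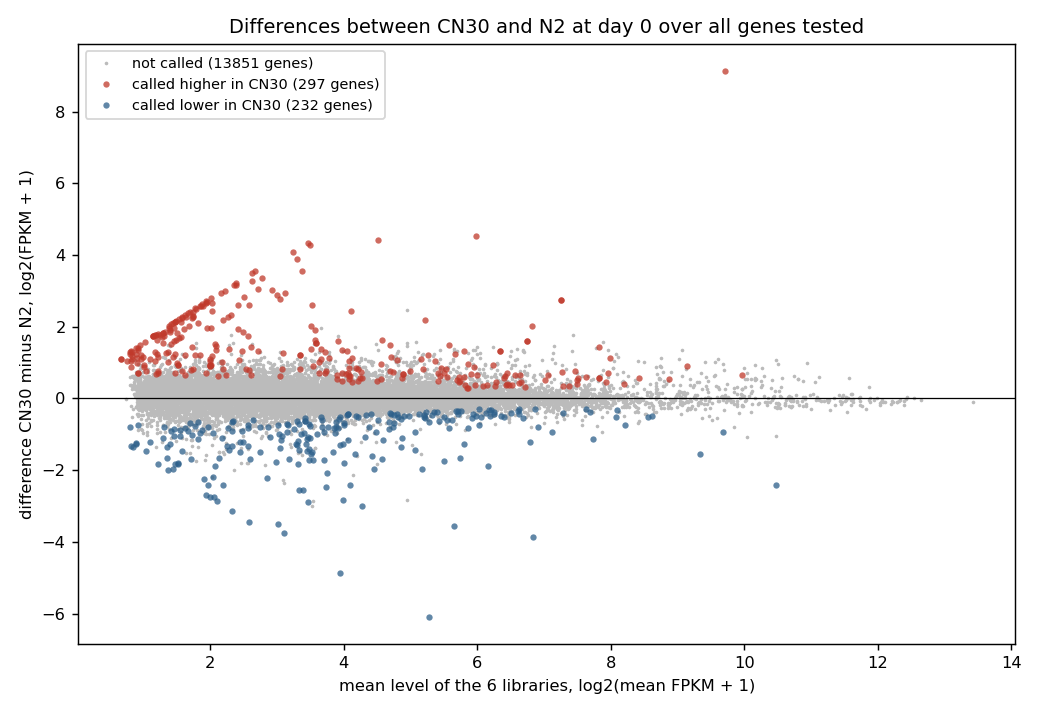
Difference between CN30 and N2 (y axis, log2(FPKM + 1)) against the mean level of the 6 libraries (x axis, log2) for each of the 14380 genes tested, with 297 genes called higher in red, 232 called lower in blue and the rest in grey. The red points that run up along a straight edge at low levels are genes near 0 in N2, and the point near 9 is the assembled locus MXLOC_020436.

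The largest falls among annotated genes included genes that stayed measurable in CN30 and genes listed at 0 there. Y94H6A.10 (chromosome IV) had 11.39, 14.42 and 15.57 FPKM in CN30, against 188.71, 218.61 and 232.51 FPKM in N2. No CN30 library came near the N2 range, and the difference was -3.86 ± 0.13 on the log2(FPKM + 1) scale (SE, limma adjusted p = 0.000126). The gap was there at every later age as well, at 17.77, 5.85 and 6.30 FPKM in CN30 and 157.70, 377.28 and 85.60 FPKM in N2 at days 6, 9 and 12. The Argonaute gene ppw-1, which acts in RNA interference in the germ line, had 7.65, 7.34 and 5.72 FPKM in CN30, against 91.66, 91.19 and 91.53 FPKM in N2. Its N2 libraries were almost equal to each other, and the difference was -3.56 ± 0.11 (SE, limma adjusted p = 0.000126). At days 6, 9 and 12 ppw-1 had 18.51, 5.87 and 2.98 FPKM in CN30, against 187.58, 177.11 and 216.87 FPKM in N2.

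The gene ecps-2 (chromosome III, 10443090 to 10445354) was listed at 0 in all 3 CN30 libraries, against 9.51, 11.23 and 9.00 FPKM in N2, and no assembled locus lies over it on its strand. It stayed between 0 and 1.15 FPKM in CN30 and between 9.26 and 10.37 FPKM in N2 at the later ages. T16G12.3 was likewise listed at 0 in CN30, with 26.22, 36.37 and 23.55 FPKM in N2. The assembled locus over it, MXLOC_008216, was lower in CN30 too, at 4.26, 4.14 and 3.86 FPKM against 21.50, 23.09 and 17.76 FPKM in N2 (-2.09 ± 0.12, SE, limma adjusted p = 0.000832). The small peptide gene nspc-1, of a nematode-specific family, had 2.95, 2.09 and 3.56 FPKM in CN30, against 22.46, 36.82 and 21.24 FPKM in N2 (-2.82 ± 0.25, SE, limma adjusted p = 0.00319). Unlike the genes above, nspc-1 was at 38.20, 33.78 and 26.15 FPKM in CN30 and 46.96, 53.52 and 19.23 FPKM in N2 at days 6, 9 and 12.

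For other large falls, an assembled locus over the gene on the same strand did not move with it, so a shift of reads between the 2 gene models and a difference in expression cannot be told apart. ZK632.9 was listed at 0 in CN30, against 83.81, 110.06 and 32.02 FPKM in N2, while MXLOC_009732 over it had 117.65, 116.16 and 113.24 FPKM in CN30 and 109.66, 113.46 and 105.89 FPKM in N2. ppw-1 itself belongs here: MXLOC_000398 over it had 45.73, 44.63 and 43.13 FPKM in CN30, against 43.60, 38.32 and 39.84 FPKM in N2, and did not pass (limma adjusted p = 0.325). sgk-1, a kinase of the insulin and TOR pathways, was listed at 0 in CN30, against 8.23, 3.52 and 7.98 FPKM in N2. The locus over it, MXLOC_022614, went the other way, at 20.51, 20.19 and 21.27 FPKM in CN30 against 11.67, 9.62 and 11.54 FPKM in N2 (0.86 ± 0.10, SE, limma adjusted p = 0.0084). F27D4.4 was at 0 in CN30 only at day 0, and later had 19.52 to 22.64 FPKM in CN30 and 18.67 to 26.34 FPKM in N2. Y69A2AR.32 was at 0 in CN30 and between 5.79 and 10.63 FPKM in N2 at day 0, and at 0 in both strains at all later ages.

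An assembled locus was about as common over the genes that passed as over all annotated genes tested, but in most pairs the locus did not pass with its gene. Of the 436 annotated genes that passed and have a known strand, 22% had an assembled locus over them, against 23.4% of the 11782 annotated genes tested with a strand. Where both members of a pair were tested, the signs matched in 43 of 95 pairs and were opposite in 52, and the locus itself passed in the same direction in 7 pairs and in the opposite one in 8. Loci lay over 8 of the 10 annotated genes that fell and were listed at 0 in CN30, and over 6 of the 31 that rose and were listed at 0 in N2.

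The largest rises among annotated genes were of genes silent or nearly so in N2. C05B5.11 (chromosome III) had 14.10, 16.84 and 29.17 FPKM in CN30, while each N2 library lists it at 0. K12H6.9 (chromosome II) had 15.04, 16.90 and 29.10 FPKM in CN30, against 0, 0.15 and 0 FPKM in N2. In both genes CN30 replicate 3 was the highest library, well above the other CN30 libraries. C49G7.13 (chromosome V) had 14.55, 23.27 and 12.51 FPKM in CN30, against 0.02, 0 and 0 FPKM in N2, and MXLOC_014328 over it had 6.57, 8.86 and 6.40 FPKM in CN30, against 0.03, 0.03 and 0.01 FPKM in N2. F56D6.11 (chromosome IV) had 10.57, 9.84 and 11.91 FPKM in CN30 and was listed at 0 in N2.

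Most of these rises did not last through the later ages. C05B5.11 had 6.67, 0.52 and 0 FPKM in CN30 at days 6, 9 and 12, against 0.10, 0 and 0 FPKM in N2, and K12H6.9 had 9.55, 0.44 and 0.44 FPKM in CN30 and 0 in N2. C49G7.13, K12H6.4 and srlf-18 were at 3.09, 3.27 and 3.88 FPKM in CN30 at day 6 and at 0 in both strains at days 9 and 12. R09F10.1 (chromosome X) is an exception: it had 16.90, 20.54 and 14.96 FPKM in CN30 at day 0, against 0.52, 0 and 0.24 FPKM in N2, and still 12.22, 15.30 and 9.00 FPKM in CN30 at days 6, 9 and 12, against 0.97, 0 and 0.37 FPKM in N2. Y17G9B.8 (chromosome IV) is another, at 12.09, 8.87 and 10.66 FPKM in CN30 and 0, 0 and 1.60 FPKM in N2 at day 0, and at 29.45 to 33.05 FPKM in CN30 and 0 in N2 later. Its day-0 call was lost in 4 of the 6 fits that left out 1 library, the highest limma adjusted p among them being 0.0697. The assembled locus MXLOC_012475 over Y17G9B.8 had a mean of 17.5 FPKM in CN30 and 12.9 FPKM in N2 and did not pass (limma adjusted p = 0.166), so reads assigned to one or the other model and expression cannot be told apart.

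Markers of male sensory neurons were low in both strains. All 8 markers were under the filter and none was tested, and their summed level was 1.64, 1.61 and 3.25 FPKM in CN30, against 0.51, 0.25 and 0.55 FPKM in N2, with no overlap. Of all genes tested, 18.2% had every CN30 library above every N2 library. Of the coexpressed polycystin-related genes, cwp-1 had 0.55, 0.58 and 1.84 FPKM and cwp-2 had 0.34, 0.36 and 0.42 FPKM in CN30, and both were listed at 0 in every N2 library. The polycystin gene pkd-2 had 0.15, 0.21 and 0.35 FPKM in CN30, against 0.05, 0.03 and 0.10 FPKM in N2, and lov-1 was the fourth marker with every CN30 library above every N2 library. The other 4, cwp-3, cwp-4, cwp-5 and klp-6, were not so separated. Without cwp-1 the sum was 1.09, 1.03 and 1.41 FPKM in CN30, against 0.51, 0.25 and 0.55 FPKM in N2. CN30 replicate 3, with the highest marker sum, was also the highest CN30 library for 76 of the 114 genes (66.7%) that rose with N2 under 1 FPKM throughout, and for 29% of all genes tested. For the other 183 rises that share was 30.1%. At days 6, 9 and 12 the marker sum was 2.66, 2.74 and 5.78 FPKM in CN30, against 0.65, 0.89 and 2.41 FPKM in N2. The part of males in the rises was not tested.

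**Figure D3:**
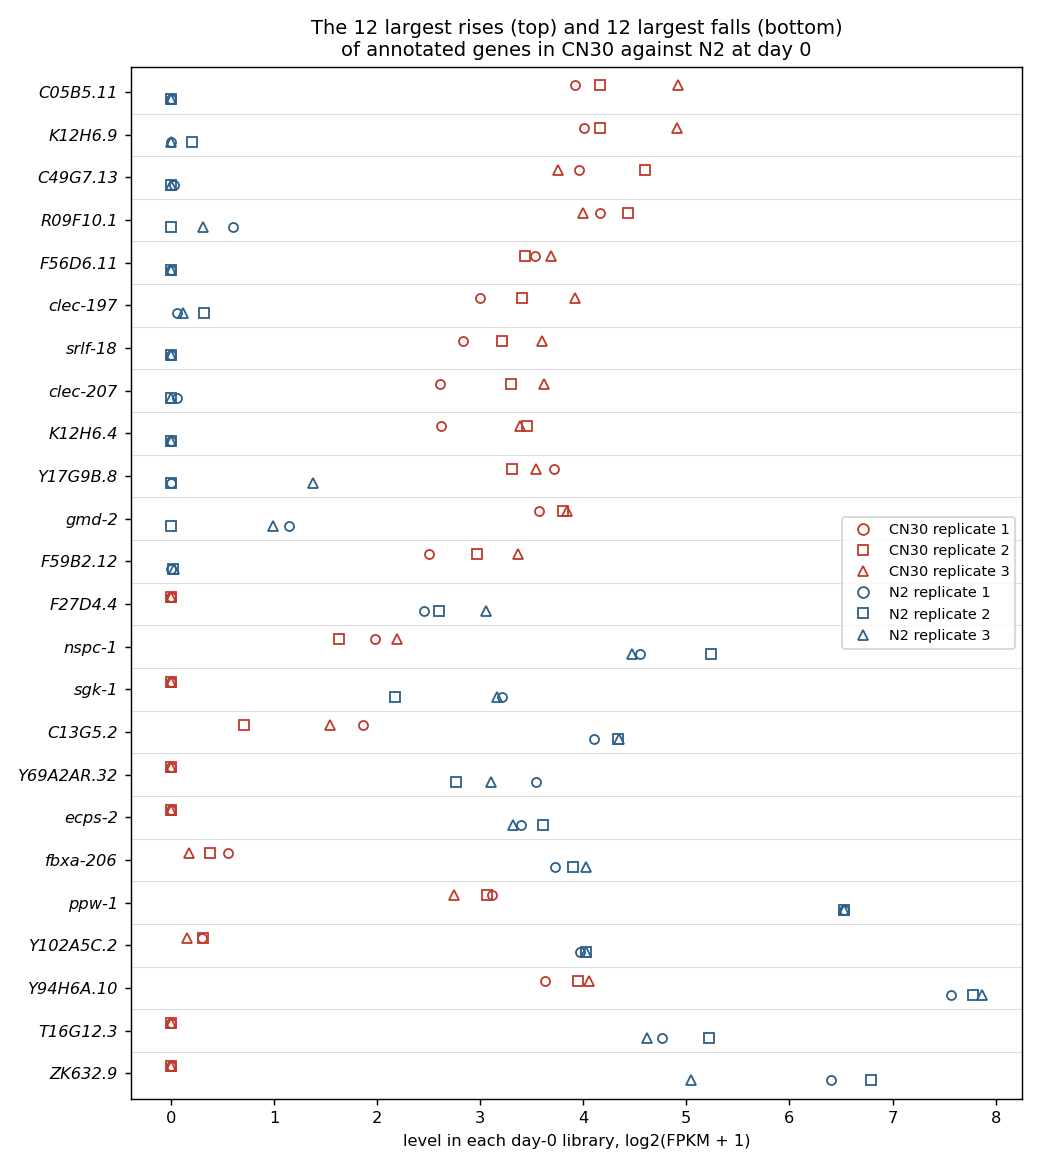
Level of the 12 largest rises (top) and 12 largest falls (bottom) among annotated genes in each day-0 library, as log2(FPKM + 1), with CN30 (red) above N2 (blue) in each line and 1 symbol per replicate. The genes were chosen among those without overlap, 6 of the falls sit at 0 in every CN30 library, and the triangles of CN30 replicate 3 lie farthest right for C05B5.11, K12H6.9, F56D6.11, clec-197, srlf-18, clec-207, gmd-2 and F59B2.12.

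Among the assembled loci, MXLOC_020436 (chromosome X, 11199476 to 11202442), lying over the cuticle collagens col-178 and col-179, had 1747.63, 1506.91 and 1735.65 FPKM in CN30, against 0.58, 5.92 and 1.40 FPKM in N2. The annotated col-178 had 432.61, 388.31 and 427.91 FPKM in CN30, against 1692.39, 3912.94 and 1634.94 FPKM in N2, the opposite direction on the same strand, so reads assigned to one or the other model and expression cannot be told apart. MXLOC_016383 (chromosome V, 19047023 to 19048864), over no annotated gene, had 118.28, 115.48 and 125.71 FPKM in CN30, against 2.90, 5.77 and 4.55 FPKM in N2 (4.52 ± 0.20, SE, limma adjusted p = 0.000252). At days 6, 9 and 12 it was at 16.35, 1.52 and 0.57 FPKM in CN30 and at 2.66, 0.27 and 0.36 FPKM in N2. MXLOC_022097 (chromosome X, 10854381 to 10876254), which overlaps the P-glycoprotein transporter genes pgp-5, pgp-6, pgp-7 and pgp-8, had 15.20, 14.32 and 25.08 FPKM in CN30, against 0.55, 0.58 and 0.65 FPKM in N2 (3.55 ± 0.22, SE, limma adjusted p = 0.000983). It kept that direction at days 6, 9 and 12, at 7.59, 8.54 and 16.66 FPKM in CN30 against 0.43, 0.75 and 0.98 FPKM in N2. The pgp genes under MXLOC_022097 were not among the genes that passed. Reads assigned to one or the other model and expression cannot be told apart there either.

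Assembled loci that fell included MXLOC_001250 (chromosome I, 11438099 to 11440730), which overlaps C27C7.1, with 3.63, 3.31 and 2.95 FPKM in CN30 against 33.25, 36.39 and 30.65 FPKM in N2 (-3.002 ± 0.11, SE, limma adjusted p = 0.000144). Its later levels were 7.47, 3.38 and 2.92 FPKM in CN30 and 139.68, 133.65 and 92.69 FPKM in N2. MXLOC_019057 (chromosome V, 17653506 to 17658163), which overlaps the F-box gene fbxa-108, had 0.03, 0.07 and 0.01 FPKM in CN30, against 6.25, 5.48 and 6.04 FPKM in N2, and stayed under 1 FPKM in CN30 and between 5.82 and 6.57 FPKM in N2 later. Neither C27C7.1 nor fbxa-108 was among the genes that passed. For both loci, reads assigned to one or the other model and expression cannot be told apart. In total 47 assembled loci rose and 34 fell among 2449 tested (3.31%), against 250 and 198 of 11931 annotated genes (3.75%).

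Among the lists of 10 or more tested genes, the C-type lectins held the largest share that passed. By the filter 15 of their 26 rises, with N2 under 1 FPKM throughout, could only rise, so this rank is a description. C-type lectins carry a carbohydrate-binding fold, and in C. elegans many are secreted and respond to bacteria. Of 97 tested, 26 rose in CN30, 1 fell and 70 did not pass (27.8% called, against 3.68% of all genes). The list's median difference was 0.37 against 0.08 over all genes, and the list's median without N2 replicate 2 was 0.255. The summed level of the 230 lectins in the table was 3950, 4100 and 4170 FPKM in CN30, against 2850, 2760 and 3160 FPKM in N2, with no overlap. The number that passed lay between 11 and 43 when single libraries were left out and was 12 with the replicate number as a block, and 10 of the rises are in the stable set.

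The rising lectins differed in their level in N2. Of the 26, 15 had under 1 FPKM in all 3 N2 libraries, such as clec-197 with 6.97, 9.56 and 14.15 FPKM in CN30 against 0.04, 0.25 and 0.08 FPKM in N2, and clec-207 with 5.08, 8.85 and 11.30 FPKM in CN30 against 0.04, 0 and 0 FPKM in N2. On chromosome I, clec-92 (3.01, 5.47 and 7.59 FPKM in CN30, against 0, 0.04 and 0 FPKM in N2) and clec-99 (4.15, 5.26 and 8.20 FPKM in CN30, against 0.34, 0.07 and 0.27 FPKM in N2) belong to these 15 too. By the filter these 15 were tested only because every CN30 library reached 1 FPKM, so they could only rise. They are part of the 27.8% of lectins called. CN30 replicate 3 was the highest CN30 library for 22 of the 26 rising lectins (84.6%), and for 29% of all genes tested. This library also had the highest sum of the male markers, all of them under the filter, and any link was not tested. Of the other 11, clec-104, clec-208 and clec-221 had 0.15 to 1.78 FPKM in N2, and 8 had at least 2.87 FPKM in every N2 library. Among these 8, clec-170 had 20.69, 23.59 and 20.24 FPKM in CN30 against 6.51, 9.11 and 8.01 FPKM in N2 (1.35 ± 0.14, SE, limma adjusted p = 0.00523). The tandem genes clec-65 and clec-66 had 68.02 to 81.67 and 33.54 to 37.03 FPKM in CN30, against 31.71 to 49.36 and 11.08 to 17.83 FPKM in N2. The fall was clec-73, with 16.84, 14.60 and 19.29 FPKM in CN30 against 51.40, 41.09 and 51.20 FPKM in N2 (-1.45 ± 0.13, SE, limma adjusted p = 0.00376). At day 6, 22 of the 26 rising lectins were higher in CN30, at day 9 15 and at day 12 16, and 7 of them were under 1 FPKM in all 6 later libraries.

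Of 20 aspartyl and cathepsin proteases tested, enzymes of digestion and lysosomes, 4 rose and 0 fell (20%, against 3.68% of all genes). The list median was 0.47, and 0.33 without N2 replicate 2. The cathepsin B-like gene cpr-4 had 325.84, 318.58 and 331.58 FPKM in CN30, against 129.32, 81.82 and 159.30 FPKM in N2 (1.44 ± 0.23, SE, limma adjusted p = 0.0263). The aspartyl protease gene asp-17 had 7.34, 7.89 and 8.41 FPKM in CN30, against 2.32, 1.89 and 2.66 FPKM in N2 (1.44 ± 0.14, SE, limma adjusted p = 0.00409), and was the only one of the 4 in the stable set. Leaving out 1 library gave between 1 and 11 called proteases. Of 51 lipases and acyl-CoA enzymes 3 rose and 0 fell (5.88%, against 3.68% of all genes), with 0 to 6 called when 1 library was left out and 0 with the replicate number as a block, among them the lysosomal lipase gene lipl-5, with 204.19, 226.76 and 221.96 FPKM in CN30 against 133.22, 138.96 and 164.13 FPKM in N2. Of 9 lysozyme genes, whose products break bacterial cell walls, lys-1 rose, with 395.01, 430.75 and 406.03 FPKM in CN30 against 254.07, 253.21 and 318.16 FPKM in N2, and 0 to 3 lysozymes passed without 1 library and 0 with the block. Of 19 saposin-like genes 0 passed in limma (6 at an unadjusted p under 0.05), and of 45 genes known from bacterial and intracellular infection 2 rose and 2 fell (8.89% called), irg-4 with 8.23, 9.59 and 6.82 FPKM in CN30 against 15.64, 26.11 and 22.76 FPKM in N2 being among the falls.

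Among the enzymes of detoxification, of 37 glutathione S-transferases, which join glutathione to reactive compounds, 3 rose and 2 fell (13.5%, against 3.68% of all genes), and 2 to 9 passed when 1 library was left out. In a cluster on chromosome II the adjacent genes gst-29 and gst-39 rose and gst-27 fell. gst-27 had 12.47, 16.93 and 11.91 FPKM in CN30 against 54.82, 48.11 and 65.98 FPKM in N2 (-1.96 ± 0.17, SE, limma adjusted p = 0.00297). gst-39 had 69.88, 65.08 and 72.63 FPKM in CN30 against 22.53, 28.65 and 21.41 FPKM in N2 (1.49 ± 0.12, SE, limma adjusted p = 0.00235). The differences of gst-27 and gst-39 had the same sign at days 6, 9 and 12, when gst-39 had 29.92, 40.77 and 48.02 FPKM in CN30 and 11.23, 12.91 and 12.21 FPKM in N2. Of 46 UDP-glycosyltransferases 3 rose and 0 fell (6.52%), among them the neighbours ugt-43 and ugt-44, with 0 to 5 called when 1 library was left out and 0 with the block. The highest of them, ugt-44, which passed in 3 of the 6 fits without 1 library, was at 38.42, 35.57 and 36.83 FPKM in CN30 against 8.89, 13.72 and 15.91 FPKM in N2. Of 38 cytochrome P450 genes 3 rose and 0 fell (7.89%, and 1 to 9 called without 1 library), and cyp-31A2, which is known from eggshell formation, had 58.27, 62.94 and 53.58 FPKM in CN30 against 30.45, 33.81 and 33.17 FPKM in N2 (0.82 ± 0.08, SE, limma adjusted p = 0.00523).

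The catalases, which break down hydrogen peroxide, are 3 neighbouring genes on chromosome II. At days 6, 9 and 12 ctl-1 had 8.43, 1.22 and 0.99 FPKM in CN30 against 24.56, 23.25 and 12.76 FPKM in N2, the same direction as at day 0, when it had 6.59, 7.53 and 4.42 FPKM in CN30 against 26.78, 19.07 and 25.89 FPKM in N2. Next to it, ctl-2 had 30.40, 19.88 and 24.37 FPKM in CN30 against 5.83, 12.93 and 8.08 FPKM in N2 at day 0 and did not pass (limma adjusted p = 0.0538). MXLOC_007021 over these genes had 42.15, 45.08 and 41.69 FPKM in CN30, against 61.18, 33.62 and 55.78 FPKM in N2, so the assignment of reads among these models and expression cannot be told apart. Of 22 antioxidant enzymes tested only ctl-3 rose and only ctl-1 fell, and ctl-3, listed at 0 in N2, had 2.33, 4.12 and 7.66 FPKM in CN30. Later, ctl-3 had 9.87, 18.27 and 17.15 FPKM at days 6, 9 and 12 in CN30 against 16.88, 6.31 and 13.60 FPKM in N2, lower in CN30 at day 6 and higher at days 9 and 12.

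The F-box genes, a large family of substrate adaptors for protein degradation, had 2 rises and 5 falls among 80 tested (8.75% called, against 3.68% of all genes), and 3 of the falls are in the stable set. The number called was 3 to 19 when 1 library was left out and 2 with the replicate number as a block. The F-box gene fbxa-206 had 0.47, 0.30 and 0.13 FPKM in CN30, against 12.24, 13.94 and 15.27 FPKM in N2 (-3.51 ± 0.15, SE, limma adjusted p = 0.000252). At days 6, 9 and 12 fbxa-206 had 7.93, 0 and 0.02 FPKM in CN30 and 49.40, 43.85 and 43.24 FPKM in N2. On the same chromosome, fbxa-192 had 2.01, 1.96 and 2.18 FPKM in CN30, against 15.97, 16.66 and 17.92 FPKM in N2 (-2.55 ± 0.11, SE, limma adjusted p = 0.000252), and 2.16 to 2.79 FPKM in CN30 against 20.00 to 26.88 FPKM in N2 later. Of 36 BATH and MATH genes, also adaptors of degradation, 0 rose and 2 fell (5.56% called), and of 135 nuclear hormone receptors nhr-54 rose and nhr-116 fell (1.48% called). Of the genes with symbols like those of serpentine receptors, 48 of 1258 passed the filter, with 3 rises and 2 falls (10.4% called), and whether the srlf and srfb symbols among them belong to that class was not checked.

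Genes of the major sperm protein family passed in both directions, and the other spermatogenesis genes that passed fell. The major sperm protein family, cytoskeletal proteins that drive sperm crawling, had 5 rises and 5 falls among 55 tested (18.2% called, against 3.68% of all genes). The family's median difference was -0.03, and 0.11 without N2 replicate 2. The summed level of its 56 members in the table was 11700, 11500 and 11400 FPKM in CN30, against 10900, 13100 and 9970 FPKM in N2, which overlap. Single copies parted: msp-77 had 746.70, 778.20 and 682.99 FPKM in CN30 against 384.00, 421.00 and 362.83 FPKM in N2 (0.92 ± 0.08, SE, limma adjusted p = 0.00375). In the other direction, msp-53 had 67.22, 57.36 and 71.81 FPKM in CN30 against 162.34, 160.14 and 138.46 FPKM in N2 (-1.22 ± 0.11, SE, limma adjusted p = 0.00312). The copies are nearly identical, so how reads were divided among them limits each value. Of 38 other spermatogenesis genes 0 rose and 2 fell (5.26% called), spe-27 and spe-18, both needed to make working sperm, and 0 to 12 passed when 1 library was left out. Without N2 replicate 2, 0 of the 38 rose and 12 fell, and of all 14380 genes 844 rose and 959 fell. Every CN30 library lay below every N2 library for 14 of the 38 (36.8%, against 12.6% of all genes) and above for 2 (5.26%, against 18.2%). In limma 14 of the 38 were at an unadjusted p under 0.05, 2 of them higher in CN30.

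Oocyte, germline and histone genes passed in both directions. Of 33 oocyte and maternal genes 3 rose (9.09% called, against 3.68% of all genes), all of them genes of the egg surface and eggshell. Among them egg-2, a receptor of the egg membrane, had 68.10, 65.32 and 63.38 FPKM in CN30 against 39.02, 48.37 and 43.03 FPKM in N2 (0.59 ± 0.09, SE, limma adjusted p = 0.0227). The chitin synthase gene chs-1 had 56.75, 60.67 and 47.94 FPKM in CN30, against 38.14, 35.44 and 34.37 FPKM in N2, and egg-3 had 62.07, 61.27 and 56.78 FPKM in CN30, against 40.75, 48.14 and 41.57 FPKM in N2. N2 replicate 2 had the highest level of each of egg-2 and egg-3 among the N2 libraries, and without it 16 of the 33 rose and 1 fell. In that fit 1803 of all 14380 genes passed, 844 higher and 959 lower. Of 33 meiosis and P granule genes syp-1, a synaptonemal complex protein, and glh-1, a P granule helicase, fell (6.06% called), by 0.44 and 0.30 on the log2 scale. Of 67 histone genes 8 rose and 3 fell (16.4% called, median 0.49, and 0.25 without N2 replicate 2), but 6 of these 11 form 3 pairs with identical values in every library, and between 1 and 25 passed when 1 library was left out. The falls were his-48, his-60 (-0.94) and his-72 (-0.73), and his-48 passed in every such fit, with 337.08, 259.58 and 392.09 FPKM in CN30 against 1008.88, 1079.50 and 808.01 FPKM in N2 (-1.56 ± 0.18, SE, limma adjusted p = 0.00797).

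Of the lists of nuclear genes that serve mitochondria, 4 had 0 called members, against 3.68% called of all genes. Of 49 nuclear respiratory chain subunits 0 passed in limma, 7 were at an unadjusted p under 0.05, and the median difference was 0.00. Likewise 0 of 20 mitochondrial stress response genes passed in limma (5 at an unadjusted p under 0.05), 0 of 19 genes of mitochondrial DNA maintenance and expression (1 unadjusted) and 0 of 27 citrate and glyoxylate cycle enzymes (2 unadjusted). Of all genes, 22.3% were under that unadjusted p. These 4 lists had 0 called with robust shrinkage too, and when 1 library was left out at most 1 stress response gene and 1 cycle enzyme passed. The ATP synthase subunit gene atp-2 had 1751.88, 1596.65 and 1706.70 FPKM in CN30, against 1621.69, 1617.17 and 1678.16 FPKM in N2, which overlap (0.04 ± 0.07, SE, limma adjusted p = 0.76). The chaperonin gene hsp-60, a target of the mitochondrial unfolded protein response, had 568.73, 532.40 and 551.36 FPKM in CN30, against 658.75, 654.04 and 594.56 FPKM in N2. These do not overlap, but the difference did not pass (-0.21 ± 0.07, SE, limma adjusted p = 0.162), and no overlap between the strains was seen for 30.8% of all genes. Of 61 mitochondrial ribosomal proteins mrps-6 fell, with 44.36, 42.26 and 42.68 FPKM in CN30 against 62.12, 58.14 and 56.90 FPKM in N2 (-0.44 ± 0.06, SE, limma adjusted p = 0.0167). Of 59 cytosolic ribosomal proteins 0 passed in limma (2 unadjusted). Of 33 proteasome subunits rpt-6, an ATPase of the regulatory particle, fell by 0.31. In limma 12 of the 33 were at an unadjusted p under 0.05, 0 of them higher in CN30. Every CN30 library lay below every N2 library for 21 of the 33 (63.6%, against 12.6% of all genes) and above for 0. The median difference of the proteasome list was -0.12.

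Cuticle and moulting lists show how far N2 replicate 2 decided a value. The collagens had a median difference of 0.49 and the moulting genes one of 0.42, and without N2 replicate 2 these were -0.01 and 0.01. Of 134 collagens 3 rose and 1 fell (2.99% called, against 3.68% of all genes). Without that library 14 rose and 20 fell, and 1803 of all 14380 genes passed. The cuticlin gene cut-2 had 159.50, 133.18 and 196.51 FPKM in CN30, against 224.04, 13.14 and 191.98 FPKM in N2. The collagens col-126 and col-127, which carry identical values, were called in every fit, with 263.99, 277.90 and 266.00 FPKM in CN30 against 180.86, 184.59 and 176.64 FPKM in N2. Of 6 vitellogenins 0 passed in limma, adjusted or not, with a median of -0.45 that was 0.20 without N2 replicate 2, when 1 rose. Markers of hypodermis and seam, body-wall muscle, pharynx, neurons, coelomocytes and intestine had 0 called members in limma among 40 tested, and 11 at an unadjusted p under 0.05. Over all genes tested, 3.68% were called and 22.3% were under that unadjusted p. The marker lists are small and were not tested as sets. Of the other marker lists, 2 of 8 for oocyte and early embryo rose (egg-2 and egg-3), 2 of 6 for the germ line fell (syp-1 and glh-1), 1 of 3 for the excretory cell rose (vha-5), and 0 of 7 for sperm and 0 of 2 for glia passed in limma, with 1 and 0 at an unadjusted p under 0.05. Among muscle genes as a list, 1 of 33 fell, the troponin I gene unc-27, with 162.68, 118.86 and 112.20 FPKM in CN30 against 313.56, 346.28 and 217.86 FPKM in N2. MXLOC_020206 over unc-27 had 411.52, 425.86 and 492.15 FPKM in CN30, against 355.32, 358.56 and 391.51 FPKM in N2, and did not pass.

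**Figure D4:**
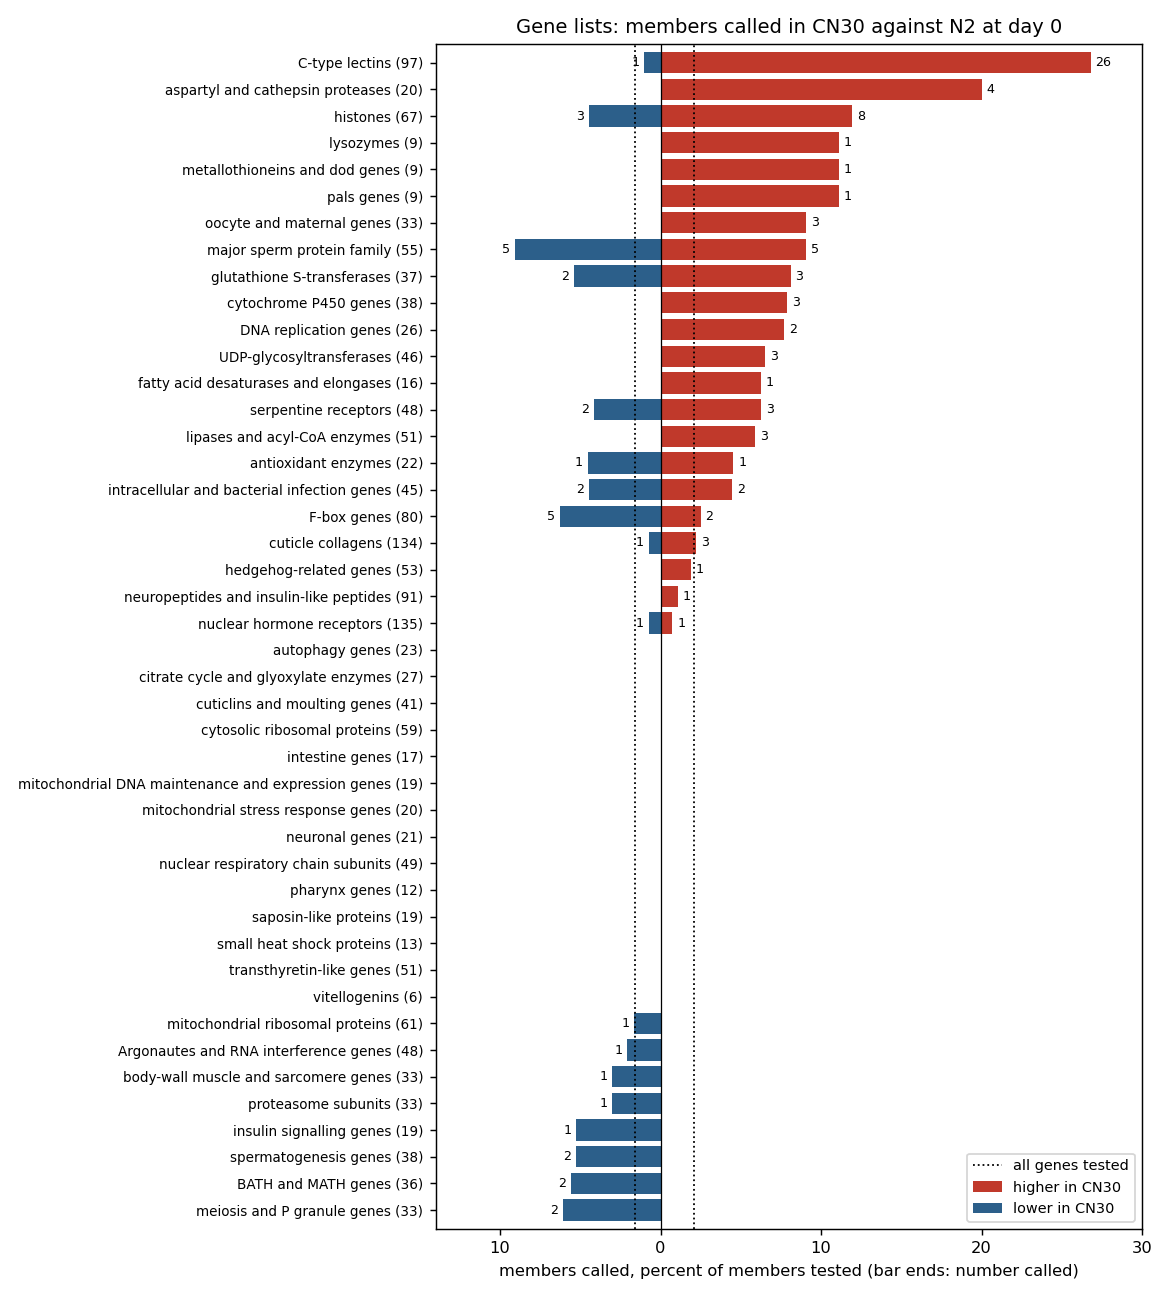
Percent of the tested members of each gene list (number tested in brackets) that were called higher (red, to the right) or lower (blue, to the left) in CN30, with the number called at the bar ends and dotted lines at the shares over all genes tested, 2.07% higher and 1.61% lower. C-type lectins have 26 higher and 1 lower. By the filter 15 of these 26, under 1 FPKM in every N2 library, could only rise. The major sperm protein family is split evenly at 5 and 5, and the lists of mitochondrial function have no red bar.

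Called genes were unevenly placed along the chromosomes. Chromosome V held the largest share (139 of 2641 tested, 5.26%), followed by IV (4.91%), II (3.79%), III (2.83%), I (2.72%) and X (2.11%). When each chromosome was divided into a middle stretch and 2 end stretches of equal length, 4.45% of the 8328 genes in the end stretches passed, against 2.62% of the 6024 in the middle ones. On chromosome V these shares were 7.34% and 2.60%, whereas on X the middle had the larger share (1.79% and 2.66%). In windows of 1 Mb with at least 20 tested genes, the median share was 2.92%, and the densest lay on chromosome V between 16 and 17 Mb, where 23 of 89 genes passed (25.8%), 10 higher and 13 lower. The window between 2 and 3 Mb of V differed in kind, since 19 of its 20 called genes (of 99 tested) were higher. These positions were not part of the choice of genes, but neighbours can share sequence and reads and are not independent.

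The longest run of neighbouring called genes stood in that window, 8 genes from 2347662 to 2394147 on chromosome V, each higher in CN30. Of the 8, MXLOC_016872 and mct-1 passed in all 6 fits that left out 1 library, the other 6 in 1 to 3 of them, and 5 were lost with the replicate number as a block. The assembled locus MXLOC_016872 opened it with 4.54, 4.46 and 4.70 FPKM in CN30 against 0.15, 0.16 and 0.12 FPKM in N2. Next to it the C-type lectin clec-209 had 235.79, 259.93 and 285.31 FPKM in CN30, against 26.03, 77.75 and 27.30 FPKM in N2. The gene mct-1, by its name of the monocarboxylate transporter family, had 121.35, 110.60 and 113.81 FPKM in CN30, against 47.32, 48.87 and 39.92 FPKM in N2 (1.33 ± 0.09, SE, limma adjusted p = 0.00132). Y19D10A.4 had 17.47, 15.77 and 16.75 FPKM in CN30 against 6.28, 3.65 and 5.57 FPKM in N2, and Y19D10A.16 had 14.02, 11.72 and 13.48 FPKM in CN30 against 4.13, 6.61 and 4.73 FPKM in N2.

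A second copy of the same genes lies further along, from 2476905 to 2502426. F56A4.12, mct-2, C01B4.8, C01B4.7 and C01B4.6 have exactly the values of Y19D10A.11, mct-1, Y19D10A.5, Y19D10A.4 and Y19D10A.16 in all 6 libraries, as F56A4.2 has those of clec-209, so the pairs count as 1 measurement each and reads of the copies cannot be told apart. Over the whole stretch of 154.8 kb, 15 of 17 tested genes rose and 0 fell, which is 9 of 11 distinct measurements, with differences of 0.72 to 4.41. The largest was that of MXLOC_014130, over F56A4.3, with 38.08, 46.43 and 42.49 FPKM in CN30 against 0.94, 0.90 and 1.28 FPKM in N2. F56A4.3 was not among the genes that passed, so reads assigned to one or the other model and expression cannot be told apart. C13B7.6 between the copies had 24.09, 22.77 and 24.23 FPKM in CN30, against 15.78, 16.67 and 12.15 FPKM in N2, and missed the threshold (limma adjusted p = 0.0504), while F56A4.10 had 1.07, 1.15 and 1.42 FPKM in CN30 against 1.04, 0.99 and 1.80 FPKM in N2. At days 6, 9 and 12 all 9 distinct measurements that passed were again higher in CN30, with mct-1 at 71.17, 87.26 and 93.93 FPKM in CN30 against 50.35, 49.08 and 46.40 FPKM in N2. Over the 11 distinct measurements the median difference was 1.21 at day 0 and 0.57, 0.89 and 1.01 at days 6, 9 and 12. Among these 11, MXLOC_016873 spans Y19D10A.11 and had similar values, so this pair may not be independent. Their day-0 means were 1.61 and 1.35 FPKM in CN30, against 0.42 and 0.43 FPKM in N2.

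**Figure D5:**
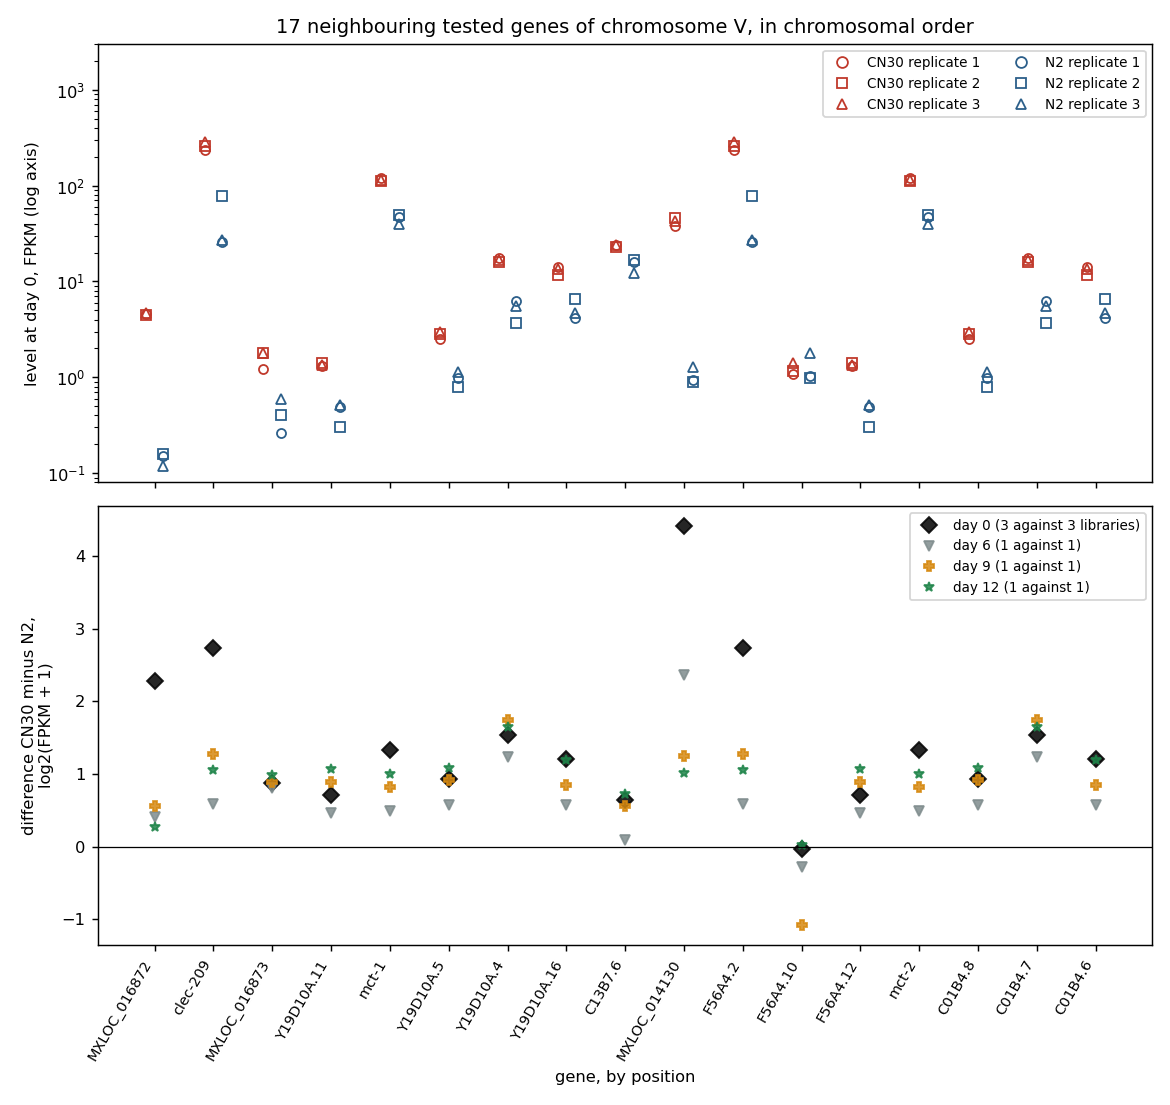
The 17 tested genes of a stretch of chromosome V in chromosomal order, with the FPKM of each day-0 library on a log axis (top, CN30 in red left of N2 in blue) and the difference CN30 minus N2 at days 0, 6, 9 and 12 in log2(FPKM + 1) (bottom). Values repeat from clec-209 and Y19D10A.11 onward in the second copy (F56A4.2, F56A4.12 and on), and all differences but those of F56A4.10 lie above 0 at every age.

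Near 16 Mb of chromosome V runs of falls were found. Between 16912234 and 16924394, nhr-116, fbxa-206, Y102A5C.2 and MXLOC_018966 were lower in CN30, and Y102A5C.4 next to them was higher. Y102A5C.2 had 0.23, 0.24 and 0.11 FPKM in CN30 against 14.59, 15.27 and 15.26 FPKM in N2 (-3.75 ± 0.12, SE, limma adjusted p = 0.000126), and Y102A5C.4 had 2.08, 2.28 and 2.26 FPKM in CN30 against 0.30, 0.23 and 0.41 FPKM in N2. All 5 kept their direction at days 6, 9 and 12. Between 16214890 and 16238829 F11A5.9, glc-1, F21H7.2, gst-22 and F21H7.5 fell together. glc-1, a glutamate-gated chloride channel subunit and a target of avermectin drugs, had 0.53, 0.52 and 0.56 FPKM in CN30, against 4.33, 3.21 and 4.49 FPKM in N2 (-1.70 ± 0.15, SE, limma adjusted p = 0.00298). Its neighbour F21H7.5 had 22.96, 16.86 and 19.88 FPKM in CN30 against 65.47, 76.52 and 64.01 FPKM in N2, but was higher in CN30 at days 6 and 9 (log2 differences of 1.29 and 0.16), and F21H7.2 was higher in CN30 at days 6, 9 and 12 (0.62, 0.38 and 0.28).

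Shorter runs include 3 lectins of chromosome I, clec-94, clec-95 and clec-96 (11146448 to 11151975), which had 1.60 to 4.68 FPKM in CN30 and at most 0.07 FPKM in N2. On chromosome II, K12H6.4, K12H6.9 and K12H6.8 rose (2823707 to 2828605), the last with 4.50, 6.35 and 7.35 FPKM in CN30 and 0 in N2, whereas their neighbour K12H6.6 had 29.85, 27.70 and 28.44 FPKM in CN30 against 22.06, 24.79 and 24.89 FPKM in N2 and did not pass. The scramblase family genes scrm-5 and scrm-8 fell together on chromosome IV, scrm-5 with 4.67, 4.24 and 6.72 FPKM in CN30 against 15.12, 14.09 and 16.19 FPKM in N2. Of runs of called neighbours there were 51 of 2 genes, 10 of 3, 3 of 5 and 1 of 8.

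The libraries of days 6, 9 and 12, which the day-0 fit did not use, give a description of how far the day-0 differences went on. Of the 529 called genes 229 (43.3%) had the day-0 sign at all 3 later ages and 61 (11.5%) the opposite sign at all 3. Among the genes that did not pass these shares were 30.2% and 25.2%. In the stable set 88 of 161 (54.7%) kept their sign and 5 reversed throughout. Over all 297 rises the median log2 difference was 0.61, 0.18 and 0.14 at days 6, 9 and 12, and over all 232 falls it was 0, -0.15 and -0.35. The 98 rises of the stable set had a median log2 difference of 1.43 at day 6, 0.53 at day 9 and 0.22 at day 12, and the 63 falls one of -0.11, -0.21 and -0.65. Of the 114 rises with N2 under 1 FPKM at day 0, 39 were under 1 FPKM in all 6 later libraries, and 32 were at 1 FPKM or more in all 3 later CN30 libraries and 12 in all 3 later N2 libraries. Of the 36 falls with CN30 under 1 FPKM, 6 were at 1 FPKM or more in all 3 later CN30 libraries and 19 in all 3 later N2 libraries. With 1 library per strain and age these later values carry no error.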

How the data were processed

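RNA of whole worms was profiled in 12 libraries, and the 6 day-0 libraries (CN30 and N2, 3 each) entered the tests. The authors deposited FPKM per gene and library for 22191 mRNA genes, of which 3167 are assembled loci. HISAT, StringTie and the build WBcel235 are named without roles or versions, per the submitters' processing notes. Another deposited table, in other units, gives exon numbers, lengths and positions of assembled transcripts, per the file headers. A deposited lncRNA table was not used. No counts were used, so the depth of the libraries is unknown and counting error could not be given. In each day-0 library 13369 to 14395 genes were at 1 FPKM or more.

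Symbols and positions of genes were taken by gene ID from RefSeq (18888 of 19024 annotated IDs matched) and strands from Ensembl, both WBcel235. The log2(FPKM + 1) values entered a two-sided limma-trend test (limma 3.58.1, R 4.3.3), adjusted by Benjamini-Hochberg over all 14380 genes, threshold 0.05. An exact permutation test of 3 against 3 libraries cannot go below 0.1, and every call therefore depends on limma's pooling of spread over genes. On simulated data of 14380 genes, 62% of log2 changes of 1 and 92% of changes of 2 were recovered, with 6.67% of calls false. Only genes with an N2 mean above 2 in log2(FPKM + 1) were changed, and noise was drawn independently for each gene and library. Changes in genes near 0 in N2 and a shift of many genes in 1 library, as in N2 replicate 2, were not simulated. These rates therefore do not carry over to the real calls. Days 6, 9 and 12 were not tested.

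The members and the gene lists were chosen with earlier results of these data known, and lists are described by counts and medians, with no test. Named genes met adjusted p under 0.05, at least 5 FPKM in the higher strain and no overlap: the 12 largest rises and 12 largest falls of annotated genes and the 4 of assembled loci each way. Added were the 10 largest of the stable set, from each list its called members, at most 4 by rank of p (otherwise its highest member), the longest run of called neighbours, ppw-1 and the catalases. Other genes were named after their values were seen: further lectins, genes of other runs, the second copy and its neighbours, the male markers, and assembled loci over named genes. Alternatives were a replicate block, a pseudocount of 0.1, no filter, a filter of 5 FPKM, quantile normalization, median-ratio rescaling, robust shrinkage, a joint fit of 12 libraries, and each library left out. Python 3.11.15 (NumPy 2.4.6, pandas 2.3.3) produced the tables, and Matplotlib 3.10.9 the figures. No sequences are shown, since no genome or sequence table of the build was used here.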

Additional observations from a re-analysis of the deposited data

Results flagged for a closer look

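For 11 of the 105 named genes that passed at day 0, the difference between CN30 and N2 had the opposite sign at all 3 later ages. That held for 11.5% of all 529 called genes and for 25.2% of the genes not called at these ages, so such reversals are not particular to the named genes. There is 1 library per strain and age there, and the difference between ages was not tested. Values are log2(FPKM + 1) differences, CN30 minus N2, at days 6, 9 and 12. Of genes higher in CN30 at day 0, the protease gene asp-14 was at -0.86, -1.09 and -1.32, the protease gene cpr-3 at -0.21, -0.11 and -0.35, and the lipase gene lipl-5 at -0.71, -0.88 and -0.37. The infection response gene irg-5 was at -0.31, -0.87 and -0.95, and the cytochrome P450 gene cyp-33C9 at -0.33, -0.12 and -0.056. All 3 rising oocyte genes are among them: egg-2 at -0.21, -0.35 and -0.26, egg-3 at -0.20, -0.19 and -0.26, and chs-1 at -0.13, -0.42 and -0.42. The replication gene psf-2 was at -0.24, -0.34 and -0.50. Of genes lower in CN30 at day 0, syp-1 was at 0.16, 0.061 and 0.095, and the assembled locus MXLOC_010359 at 0.55, 0.41 and 0.13. MXLOC_010359 had 2.1, 1.81 and 1.72 FPKM in CN30 at day 0, against 18.22, 12.78 and 17.51 FPKM in N2, and at most 0.60 FPKM in any later library of either strain.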

How the results depend on the processing

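The count of called genes, 529 (297 higher, 232 lower), was 305 (151 higher, 154 lower) with a filter of 5 FPKM and 10227 genes tested, and 839 (320 higher, 519 lower) with quantile normalization, where the share of higher calls was 38.1% against 56.1%. Leaving out 1 library gave 186 to 1803 called genes, 105 to 844 higher and 72 to 959 lower, and the cause was not tested. The count stayed within 1.5 times with the other alternatives (474 to 653), but its make-up did not always. With median-ratio rescaling 301 genes were higher and 339 lower, a share of higher calls of 47%. The joint fit of 12 libraries called 508 genes, of which 354 were among the 529. With the replicate number as a block 158 genes passed (94 higher, 64 lower), all of them among the 529, but same-numbered libraries shared only a number (correlations of deviations 0.06, -0.04 and -0.02) and the labels do not say that it pairs them. Of 121 named genes 105 were called, none of which changed sign in any alternative, and 39 kept their call in every one. Of the 16 named genes that were not called, 5 changed sign. With single libraries left out, cut-2 lay between -0.36 (without N2 replicate 2) and 1.63, vit-6 between -0.63 and 0.014 (without N2 replicate 2), ttr-15 between -0.11 and 0.21 and epg-3 between -0.077 and 0.035. With median-ratio rescaling, ttr-15 was at -0.04 and atp-2 at -0.03. The median over all genes, 0.08, was -0.001 with quantile normalization and 0.015 with median-ratio rescaling. The densest 1-Mb window (25.8%) was 28.3% with windows of 0.5 Mb, the later-age count of 229 did not change with a pseudocount of 0.1, and the opposite pairs of gene and assembled locus were 50 of 93 with an overlap of at least 50% of the gene. The depth is unknown, so no limit can be given for low values.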
